A study of Mus musculus with 9 samples.

Results

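The aminoacyl-tRNA synthetases were followed in primary mouse splenic B cells, naïve and activated, with and without the monocarboxylate transporter Mct1. The genes were taken by their symbols, as every row of the deposited expression table named by an amino acid letter followed by ars, together with Eprs, Farsa and Farsb, with or without a final 1 or 2. This gave 37 of the 17596 genes in the table. All 37 had a mean of at least 1 FPKM (fragments scaled to transcript length and to all mapped fragments) over the 9 libraries and were tested among 10823 genes that passed this filter.

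Aminoacyl-tRNA synthetases join each amino acid to its tRNA, which is the step at which the genetic code is read into protein. Mammalian cells keep separate sets for the cytosol and for the mitochondrial ribosome, both encoded in the nucleus, and a few enzymes serve both places. By this division 18 of the genes are cytosolic, 17 are mitochondrial, and Gars (glycine) and Kars (lysine) make both forms. Some cytosolic enzymes are held in a multi-synthetase complex, and a shortage of charged tRNA is sensed by the kinase GCN2, which raises translation of the transcription factor ATF4. Naïve B cells are small resting cells that grow, divide and begin antibody class switching after activation.

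The 9 libraries came from Mb1Cre mice (control) and Mct1f/f Mb1Cre mice (Mct1-deficient, KO in the sample descriptions). In the Mct1-deficient mice, Cre driven by Mb1 acts in the B cell lineage on a floxed segment from exon 1 to intron 3 of Mct1. Control mice carried Mb1Cre as well, and the floxed allele was made on a C57BL/6J background. The methods give an age of 6 to 8 weeks for the mutant mice. On day 0 there were 2 control and 2 Mct1-deficient libraries of untreated cells, and on day 3 there were 2 control and 3 Mct1-deficient libraries of cells stimulated for 3 days with LPS at 10 μg/mL and IL-4 at 50 ng/mL. The culture medium was RPMI-1640 with serum, β-mercaptoethanol, GlutaMax and nonessential amino acids, so that activation, time in culture and this medium cannot be told apart. The labels do not say whether libraries of a group came from separate mice, and the p-values therefore measure the spread between these libraries, which may be technical.

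The targeted gene, listed as Slc16a1, was at 10.8, 9.81 and 9.50 FPKM in Mct1-deficient cells on day 3, against 22.6 and 22.9 FPKM in control cells. The genotypes did not overlap on day 3 (limma, adjusted p = 9.07e-06), and an exact two-sided permutation test gave p = 0.1, which no 3 libraries against 2 can go below. On day 0 it was at 3.71 and 4.06 FPKM in the libraries labelled Mct1-deficient and at 4.33 and 3.80 FPKM in the controls (exact permutation test, p = 0.667, with 0.333 the smallest possible), so this check does not separate the genotypes before activation. FPKM of all genes summed to between 477079 and 491460 on day 0 and to between 547355 and 563587 on day 3, and sequencing depth is unknown because the values hold no counts. The 6 B cell markers (Cd79a, Cd79b, Ms4a1, Pax5 and Cd22 among them) summed to between 4183 and 4612 FPKM on day 0 and to between 2182 and 2271 FPKM on day 3. The 10 myeloid markers summed to between 1146 and 2019 FPKM on day 0 and to between 64.4 and 103 FPKM on day 3, with Mpo and Elane between 0 and 0.23 FPKM on day 3. The highest myeloid sum, 2019 FPKM, was that of Mct1-deficient replicate 1 on day 0. The 6 erythroid markers summed to between 125 and 231 FPKM on day 0 and to at most 7.95 FPKM on day 3, and the 8 T and NK cell markers to between 58.8 and 71.0 FPKM and to between 6.54 and 8.41 FPKM. The 4 plasma cell markers summed to between 134 and 234 FPKM on day 0 and to between 321 and 393 FPKM on day 3, but they did not move together. Xbp1 and Prdm1 rose, with log2 changes of 2.00 and 1.65 in control and 1.82 and 1.85 in Mct1-deficient cells. Sdc1 fell, by 1.27 and 0.90. Jchain rose in control cells (0.79) and fell in Mct1-deficient cells (-0.65). The Y-linked gene Ddx3y was at 0.24 and 0.02 FPKM in control and at 31.1 and 0.20 FPKM in Mct1-deficient cells on day 0. It was at 14.7 to 16.9 FPKM in all 5 libraries on day 3. Sex and activation therefore cannot be told apart in the control comparison, nor in the interaction of genotype and day, which contains it. The 2 Mct1-deficient libraries of day 0 differed in Ddx3y, so sex also enters the other comparisons that use them.

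In naïve control B cells the cytosolic synthetases had a median of 28.1 FPKM and the mitochondrial ones a median of 8.26 FPKM. Vars, the cytosolic valine enzyme, was the highest of all 37, with 156 ± 4.76 FPKM (SD, n = 2), followed by Kars with 53.6 ± 0.898 FPKM. Nars2, the mitochondrial asparagine enzyme, was the lowest with 3.38 ± 0.269 FPKM. After activation of control cells the median of the cytosolic genes was 69.5 FPKM and that of the mitochondrial genes 7.73 FPKM. The first place passed to Gars, with 160 ± 6.47 FPKM, and it lay next to Vars (152 ± 0.184 FPKM), Kars (147 ± 4.31 FPKM) and Nars (146 ± 0.820 FPKM). The ranges of Gars and Vars did not overlap in control cells, and those of Kars and Nars did.

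**Figure D1:**
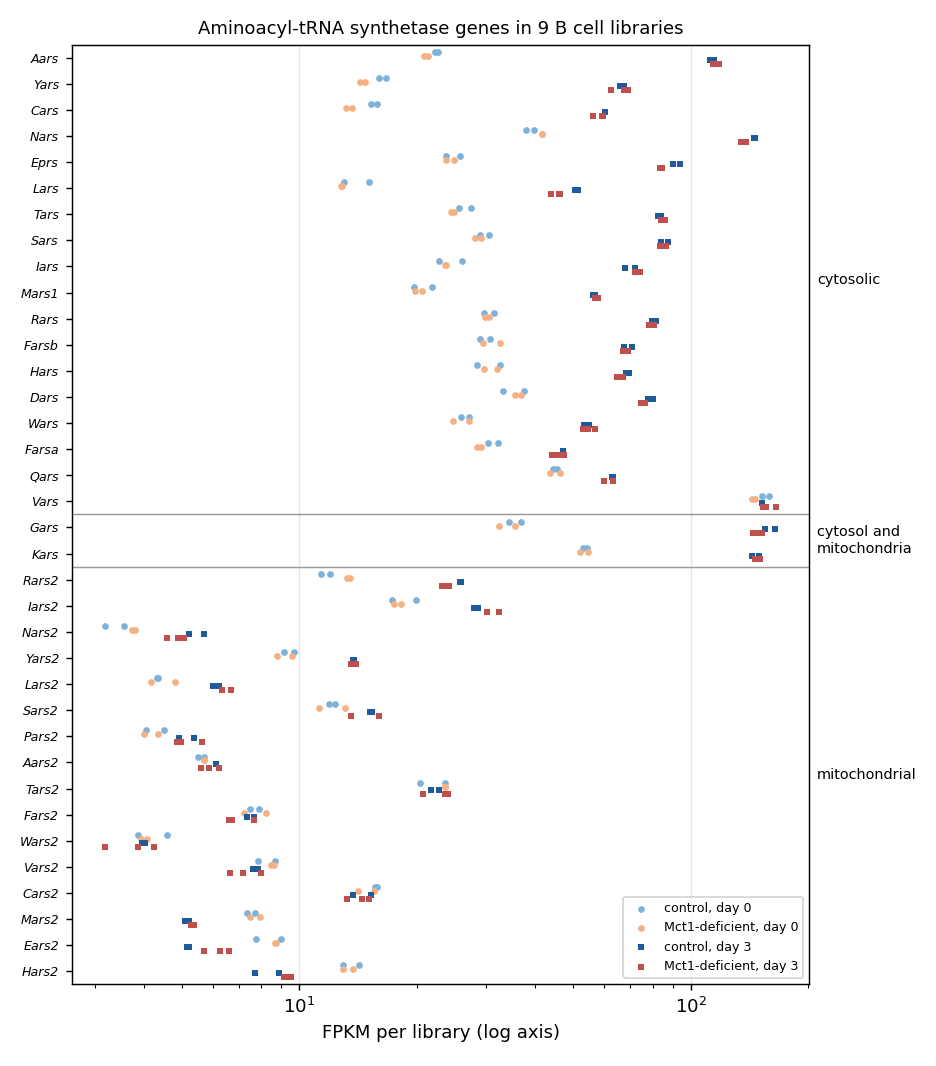
FPKM of 36 synthetase genes in each of the 9 libraries (log axis), in blocks for cytosolic genes, genes that serve both compartments, and mitochondrial genes, ordered by the change in control cells. Circles are day 0 and squares day 3, and the squares of most cytosolic genes lie to the right of the circles while those of Vars, Aars2, Cars2, Fars2, Tars2, Vars2 and Wars2 lie among or overlap them.

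On activation of control B cells, 25 of the 37 genes were called, against 57.8% of all tested genes, where a call needs an adjusted limma p under 0.05 together with a log2 change above 0.5 in size. In the higher direction 23 were called against 24.8% of all tested genes, and in the lower direction 2 were called against 33% of all tested genes. The days did not overlap for 34 of the 37, against 91.9% of all tested genes. The 23 that rose were 16 of the 18 cytosolic genes, both genes that serve both compartments and 5 of the 17 mitochondrial genes. The median log2 change was 1.45 for cytosolic genes, 0.11 for mitochondrial genes and -0.12 for all tested genes. In bulk samples, fewer cells of a type and less RNA per cell cannot be told apart, and the fall of the myeloid, erythroid and T cell markers from day 0 to day 3 goes with this comparison; their part in the synthetase values was not tested. The median change of all genes itself depended on scaling, at -0.31 with libraries set to the same total, 0.07 with median-of-ratios scaling and 0.02 with quantile normalization, and the values that follow are to be read against -0.12.

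The largest rises were those of Aars, Gars, Yars, Cars and Nars. Aars, which charges alanine and lies at chr8:111033144-111057664 (plus strand, 18 exon blocks), went from 22.2 and 22.6 FPKM to 112 and 114 FPKM in control cells. In Mct1-deficient cells it went from 21.3 and 20.8 FPKM to 116, 114 and 118 FPKM. All day 3 libraries stood far above all day 0 libraries, and the FPKM ratio in control cells was 5.06. The log2(FPKM + 1) scale understates the change of genes with low FPKM. On this scale Aars rose by 2.29 ± 0.0411 (SE) in control cells (limma, adjusted p = 4.28e-12) and by 2.41 ± 0.0375 in Mct1-deficient cells. In the GENCODE annotation 14.3% of the exonic bases of Aars overlap Exosc6 on the same strand, an RNA exosome subunit gene that had 15.7 to 19.0 FPKM on day 0 and 23.2 to 29.5 FPKM on day 3, and how the authors counted shared bases is not given in the sources used here.

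Gars, the glycine enzyme of both compartments, had 36.8 and 34.4 FPKM in control and 32.4 and 35.5 FPKM in Mct1-deficient libraries on day 0. On day 3 it reached 164 and 155 FPKM in control and 144, 147 and 152 FPKM in Mct1-deficient libraries. The days were well apart in both genotypes, with log2 changes of 2.13 ± 0.0563 and 2.09 ± 0.0514. Yars, which charges tyrosine, had 16.0 and 16.7 FPKM in control and 14.3 and 14.7 FPKM in Mct1-deficient libraries on day 0. It had 67.7 and 66.1 FPKM and 62.7, 67.7 and 69.1 FPKM on day 3, again without overlap of the days. Its log2 changes were 1.97 ± 0.0537 in control and 2.12 ± 0.0490 in Mct1-deficient cells.

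Cars, the cysteine enzyme, had 15.8 and 15.2 FPKM in control and 13.1 and 13.7 FPKM in Mct1-deficient libraries on day 0, and 60.3 and 60.6 FPKM and 56.3, 59.3 and 59.7 FPKM on day 3. It rose by 1.90 ± 0.0478 in control and by 2.04 ± 0.0436 in Mct1-deficient cells, from a naïve level that was lower in both Mct1-deficient libraries than in either control library. Nars, which charges asparagine, had 39.7 and 38.0 FPKM in control and 41.7 and 41.6 FPKM in Mct1-deficient libraries on day 0, and 145 and 146 FPKM and 135, 139 and 138 FPKM on day 3. For Nars the order of the genotypes thus changed between the days, and its log2 changes were 1.88 ± 0.0405 and 1.69 ± 0.0370.

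The remaining cytosolic enzymes that rose in control cells spanned log2 changes from 0.58 to 1.85. Eprs, a single protein that charges both glutamate and proline, rose by 1.85, and Lars (leucine) by 1.79. Tars (threonine) rose by 1.61, Sars (serine) by 1.50, Iars (isoleucine) by 1.49, Mars1 (methionine) by 1.41 and Rars (arginine) by 1.38. Smaller rises were found for the phenylalanine subunits Farsb (1.18) and Farsa (0.58), for Hars (histidine, 1.15), Dars (aspartate, 1.14) and Wars (tryptophan, 1.00). Kars rose by 1.44. The subunits of phenylalanyl-tRNA synthetase, which work as a tetramer of both, were at different levels on day 3, 47.2 and 47.0 FPKM for Farsa and 67.5 and 70.6 FPKM for Farsb in control cells, after 32.2 and 30.3 FPKM and 30.8 and 29.0 FPKM on day 0. Some of these values share sequence or annotation with other genes. Iars shares 7.15% of its 50-base sequences with the transcript Gm4849, Hars overlaps Hars2 head to head over 7.97% of its exonic bases, and whether counting used strand is not given in the sources used here.

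Vars and Qars were the cytosolic genes that were not called in control cells. Vars had 152 and 159 FPKM in control and 146 and 143 FPKM in Mct1-deficient libraries on day 0, and 152 and 152 FPKM and 153, 156 and 165 FPKM on day 3. The most abundant synthetase of naïve cells therefore stayed within 143 to 165 FPKM in all 9 libraries. Its log2 change was -0.03 in control cells as deposited and 0.18 with median-of-ratios scaling, and in Mct1-deficient cells it was 0.13 as deposited, -0.05 with libraries set to the same total and -0.10 with quantile normalization, so its direction rests on the scaling. Qars, which charges glutamine, had a log2 change of 0.48 in control and 0.46 in Mct1-deficient cells, just inside the limit of 0.5. Its days did not overlap in either genotype. With median-of-ratios scaling Qars was called higher in control (0.69) and Mct1-deficient cells (0.67). Farsa, called higher as deposited, was not called with libraries set to the same total, at 0.38 in control and 0.48 in Mct1-deficient cells. Vars and Qars were chosen for this description after their values were seen.

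**Figure D2:**
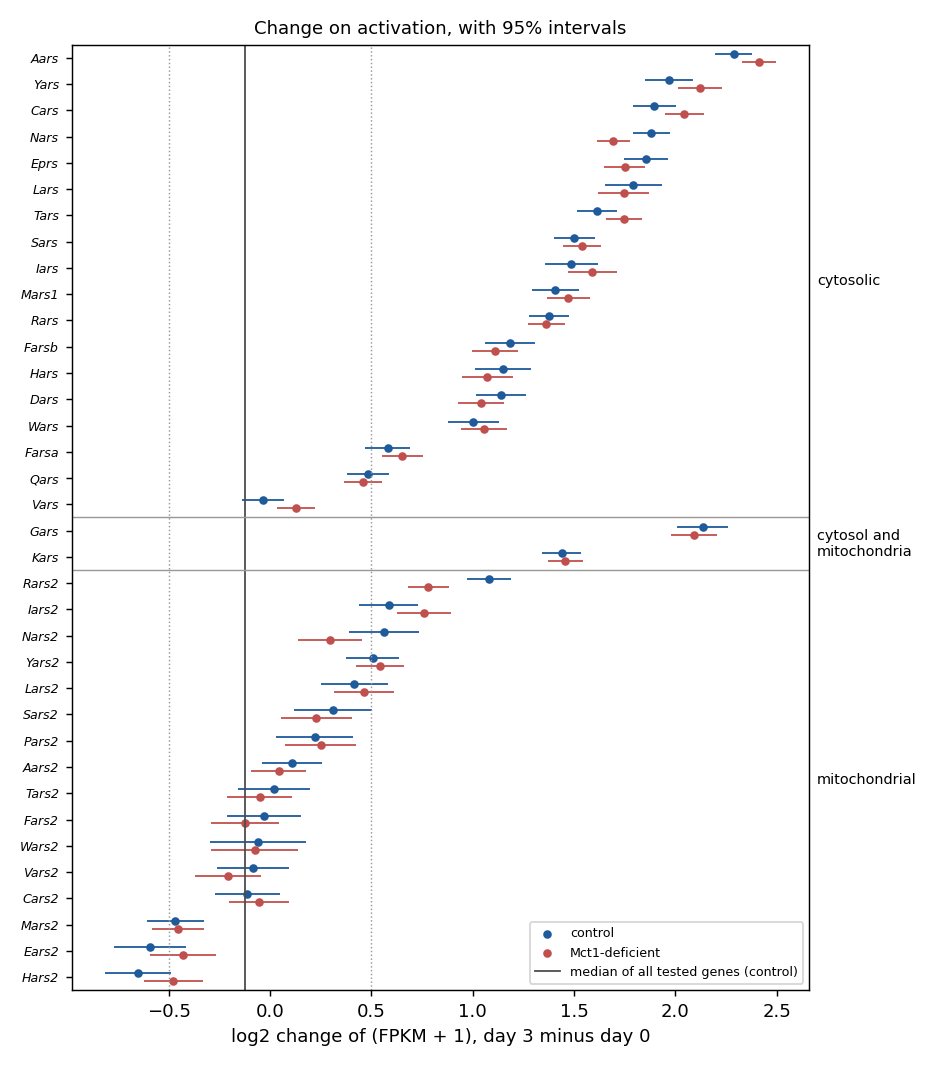
Log2 change of (FPKM + 1) from day 0 to day 3 for 36 synthetase genes in control and Mct1-deficient B cells, with 95% intervals from the limma fit. The solid line is the median of all tested genes in control cells (-0.12) and dotted lines mark the limit of 0.5. The points of all cytosolic genes but Vars and Qars lie beyond the upper limit in both genotypes.

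The promoters of all members with a promoter window were read for 3 short motifs. The windows ran from 250 bases before to 50 bases after the start site in the RefSeq table of GRCm38.p6. The table held a window for 27 of the 37 genes, and for 10 genes, among them Cars, Hars, Lars, Nars, Rars, Vars and Wars, it held none. The letters TGATGNAA, the core of the element that ATF4 binds together with C/EBP factors, were found on either strand in 5 of the 27 genes (18.5%), against 2.78% of the tested genes with a window and 4.51% of all genes with a window. These genes were Aars, Gars, Iars, Tars and Yars, which are the cytosolic or shared-compartment members with log2 changes of 2.29, 2.13, 1.49, 1.61 and 1.97 in control cells. None of the 14 mitochondrial genes with a window held it. The 8 other cytosolic and shared genes with a window had changes from 0.48 (Qars) to 1.85 (Eprs), so large rises were found with and without these letters in the window. A match is printed for each gene as 30 bases on the strand of the gene, 5′ to 3′, with the matching letters in capitals, because Aars, Gars and Yars, the 3 members with the largest rises, held it.
Aars, chr8:111033840-111033869, plus strand: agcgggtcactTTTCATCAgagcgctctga
Gars, chr6:55037960-55037989, plus strand: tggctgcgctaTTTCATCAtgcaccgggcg
Iars, chr13:49682126-49682155, plus strand: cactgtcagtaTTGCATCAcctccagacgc
Tars, chr15:11399655-11399684, minus strand: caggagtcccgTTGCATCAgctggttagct
Yars, chr4:129189895-129189924, plus strand: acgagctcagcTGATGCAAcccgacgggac

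These matches began 30 and 15 bases before the start site in Gars and Tars, and 3 to 9 bases after it in Aars, Iars and Yars. Aars, Gars, Iars and Tars carried the letters in reverse orientation and Yars carried them forward. The E-box CACGTG, which MYC and related factors can bind and which reads the same on both strands, was also found in 5 of the 27 genes (18.5%), against 12.1% of tested genes. It lay in Aars, Farsb, Iars and Tars among the cytosolic genes and in Ears2 among the mitochondrial ones. Aars, Iars and Tars therefore held both motifs, and no match overlapped another. The E-box matches are shown in the same way, with the E-box in capitals.
Aars, chr8:111033685-111033714, plus strand: gtcaaccctgtCACGTGacactccatgtcc
Farsb, chr1:78488918-78488947, minus strand: tagacaggcatCACGTGagacagcccaaga
Iars, chr13:49682050-49682079, plus strand: accaatcgccaCACGTGttgtttgtaggtg
Tars, chr15:11399621-11399650, minus strand: ccgcctgtggcCACGTGgcgcacgcgcagt
Ears2, chr7:122067047-122067076, minus strand: gcgaaggagccCACGTGtgtgtttctagtc

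The letters CGCATGCG, the core of sites of the respiratory gene factor NRF1, were found in Vars2 and Wars2 (7.41% of 27 genes, against 4.68% of tested genes). Neither of these mitochondrial genes was called on activation. A match in these windows is a description of the letters and does not show that a factor binds there.

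Other groupings of the cytosolic and shared genes overlapped widely, and their counts called higher stand against 24.8% of all tested genes. The 8 enzymes of the multi-synthetase complex (Dars, Eprs, Iars, Kars, Lars, Mars1, Qars and Rars) had a median log2 change of 1.42 in control cells, with 7 called higher, and the 12 outside it a median of 1.56, with 11 called higher. By structural class, leaving out Eprs, which joins an enzyme of each class, the 9 class I genes had a median of 1.41 and the 10 class II genes a median of 1.47. The 11 members often named as ATF4 targets (Aars, Cars, Eprs, Gars, Iars, Mars1, Nars, Sars, Tars, Wars and Yars) were all called higher, with a median of 1.85, and 7 of the 9 others were called higher, with a median of 1.15. The ranges of the last comparison overlapped, from 1.00 to 2.29 and from -0.03 to 1.79.

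The mitochondrial synthetases moved in both directions and by less. Rars2, the mitochondrial arginine enzyme, had the largest rise, from 12.0 and 11.3 FPKM to 25.8 and 25.7 FPKM in control cells and from 13.3 and 13.5 FPKM to 23.9, 23.1 and 24.1 FPKM in Mct1-deficient cells. Its log2 changes were 1.08 ± 0.0498 and 0.78 ± 0.0454, while the changes of the other mitochondrial members did not exceed 0.58 in control cells. Iars2 rose by 0.58, Nars2 by 0.56 and Yars2 by 0.51 in control cells. These calls lay near the limit, and Iars2, Nars2 and Yars2 were not called without control replicate 2 of day 0, which left 19 genes called higher. A part of Iars2 (24.2% of its exonic bases) overlaps genes on the opposite strand.

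Hars2 and Ears2 were the members called lower in control cells. Hars2, the mitochondrial histidine enzyme, had 13.0 and 14.2 FPKM in control and 12.9 and 13.7 FPKM in Mct1-deficient libraries on day 0, and 8.87 and 7.70 FPKM and 9.52, 9.23 and 9.12 FPKM on day 3. Ears2, which charges the mitochondrial glutamate tRNA, had 8.98 and 7.77 FPKM in control and 8.64 and 8.71 FPKM in Mct1-deficient libraries on day 0, and 5.23 and 5.17 FPKM and 6.27, 5.72 and 6.60 FPKM on day 3. Both were lower in every library of day 3 than in any of day 0. Hars2 fell by 0.65 (SE 0.0732, limma, adjusted p = 6.64e-06) and Ears2 fell by 0.59 (SE 0.0802, limma, adjusted p = 3.21e-05) in control cells, which with median-of-ratios scaling became -0.46 and -0.41, inside the limit. Mars2, the mitochondrial methionine enzyme and a gene of 1 exon block, had 7.33 and 7.69 FPKM in control and 7.46 and 7.94 FPKM in Mct1-deficient libraries on day 0, against 5.21 and 5.10 FPKM and 5.37, 5.30 and 5.37 FPKM on day 3. Its log2 changes of -0.47 and -0.45 were not called, although the days did not overlap.

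Among the other mitochondrial members that were not called in control cells, Lars2 had a log2 change of 0.42, Sars2 of 0.31 and Pars2 of 0.22. Aars2 (0.11), Tars2 (0.02), Fars2 (-0.03), Wars2 (-0.06), Vars2 (-0.08) and Cars2 (-0.11) lay between -0.11 and 0.11, and each of them changed sign under at least 1 other scaling.

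Activation of Mct1-deficient B cells gave similar counts. Of the 37 genes 21 were called, against 56.5% of all tested genes, and all 21 were called higher, against 23.4% of all tested genes. They were the same 16 cytosolic genes, Gars and Kars, and the mitochondrial genes Rars2 (0.78), Iars2 (0.76) and Yars2 (0.54). No member was called lower, against 33.2% of all tested genes, and the days did not overlap for 32 of 37, against 89.8% of all tested genes. With libraries set to the same total, 19 members were called higher and 3 lower (86.4% of the called members higher). The median log2 change of all tested genes was then -0.30, and the shares of all tested genes called were not computed for this or other alternatives. As deposited, Hars2, Ears2 and Mars2 had log2 changes of -0.48, -0.43 and -0.45, and Nars2 of 0.29, each inside the limit. The median log2 change was 1.51 for cytosolic, 0.04 for mitochondrial and -0.14 for all tested genes. Leaving out Mct1-deficient replicate 2 of day 0, which left on day 0 the library with 31.1 FPKM of Ddx3y, gave 21 members called higher, and leaving out replicate 1, the library with the highest myeloid markers, gave 21 higher and 1 lower.

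Each cytosolic enzyme was also set beside the mitochondrial enzyme for the same amino acid, in 17 pairs in which Eprs stands beside both Pars2 and Ears2, and Farsa beside Fars2. The cytosolic member had the larger log2 change in 17 of 17 pairs in control cells and in 17 of 17 in Mct1-deficient cells, with median differences of 1.38 and 1.40. The smallest difference in control cells was that of Vars and Vars2 (0.05), and that of Rars and Rars2 followed (0.30).

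The widest gaps in control cells were those of Eprs and Ears2 (2.45), Aars and Aars2 (2.18) and Cars and Cars2 (2.01). Eprs went from 25.7 and 23.8 FPKM to 90.0 and 94.0 FPKM in control cells and from 23.7 and 24.9 FPKM to 83.6, 84.1 and 84.4 FPKM in Mct1-deficient cells. Aars2 went from 5.72 and 5.51 FPKM to 6.14 and 6.12 FPKM in control cells, and from 5.72 and 5.69 FPKM to 5.61, 6.25 and 5.87 FPKM in Mct1-deficient cells. The level of Aars divided by that of Aars2 was 3.99 on day 0 and 18.5 on day 3 in control and 3.69 and 19.7 in Mct1-deficient cells, while Aars2 stayed between 5.51 and 6.25 FPKM in all libraries. Cars2 went from 15.8 and 15.6 FPKM to 15.2 and 13.7 FPKM in control cells, and from 15.5 and 14.2 FPKM to 13.3, 14.4 and 15.1 FPKM in Mct1-deficient cells. The enzymes for cysteine thus had near equal levels in naïve control cells (ratio 0.988) and a ratio of 4.18 after activation.

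**Figure D3:**
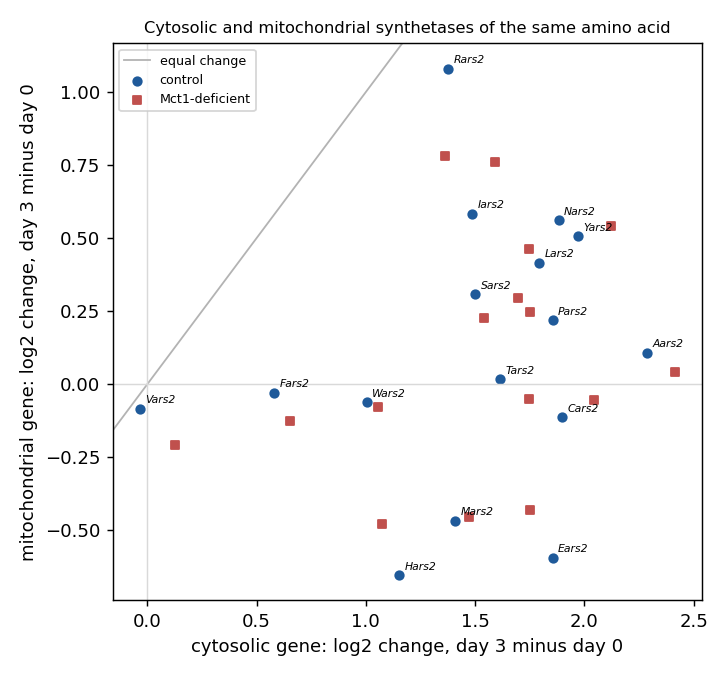
Log2 change on activation of the cytosolic gene (horizontal axis) against that of the mitochondrial gene for the same amino acid (vertical axis), for 16 pairs in control and Mct1-deficient B cells, with control points named by the mitochondrial gene. All points lie below the line of equal change, and those of Vars2 and Rars2 in control cells lie nearest to it.

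Summed over all 37 genes, the synthetases had 870 ± 23.8 FPKM (SD, n = 2) in control and 851 ± 11.5 FPKM (n = 2) in Mct1-deficient cells on day 0. On day 3 the sums were 1936 ± 5.03 FPKM (n = 2) and 1904 ± 31.0 FPKM (n = 3). This is 2.22 times the day 0 level in control and 2.24 times in Mct1-deficient cells, and a rise from 0.180% to 0.349% of all FPKM in control cells. The cytosolic genes alone went from 618 ± 15.3 FPKM to 1439 ± 8.97 FPKM in control cells, and the mitochondrial genes from 163 ± 5.94 FPKM to 191 ± 1.78 FPKM. The ratio of cytosolic to mitochondrial FPKM was 3.78 ± 0.0437 and 3.60 ± 0.0167 on day 0 and 7.54 ± 0.117 and 7.47 ± 0.107 on day 3, in control and Mct1-deficient cells in turn. Without Vars the ratio was 2.83 and 2.73 on day 0 and 6.74 and 6.63 on day 3. These sums are descriptions, and no test was made on them.

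**Figure D4:**
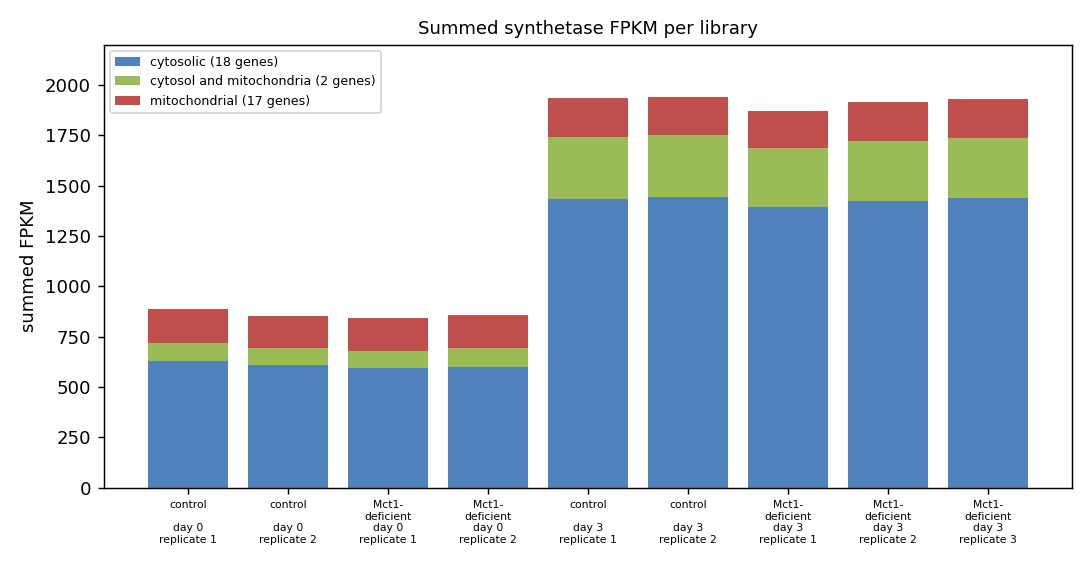
Summed FPKM of the synthetase genes in each of the 9 libraries, stacked for the cytosolic genes, Gars and Kars, and the mitochondrial genes. The 4 day 0 bars reach between 843 and 887 FPKM and the 5 day 3 bars between 1870 and 1940 FPKM, with little change in the mitochondrial part.

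Between the genotypes no synthetase was called on day 3, against 2.42% of all tested genes, and none at an adjusted p under 0.05 without the limit on size, against 15.2% of all tested genes. At an unadjusted limma p under 0.05 there were 7 of 37 members, against 29% of all tested genes, and the genotypes did not overlap for 19 of 37, against 47.1% of all tested genes. The median difference, Mct1-deficient minus control, was -0.02 for the members and -0.01 for all tested genes, with values such as -0.16 for Lars and 0.21 for Ears2. A difference of 0.5 on the log2 scale in either direction was outside the 95% interval of each of the 37 synthetases on day 3.

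Ears2 and Lars were among the members with the lowest p on day 3. For Ears2, with the values given above, the 3 Mct1-deficient libraries were above both controls, with a difference of 0.21 ± 0.0732 (limma, adjusted p = 0.0769). Lars had 43.9, 46.3 and 46.0 FPKM in Mct1-deficient and 50.5 and 51.5 FPKM in control libraries on day 3, after 12.9 and 12.8 FPKM and 15.1 and 13.0 FPKM on day 0. It was lower in each Mct1-deficient library of the day, with a difference of -0.16 ± 0.0571 (limma, adjusted p = 0.0788). Neither of these differences passed the adjustment.

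On day 0 no synthetase was called either, against 0.277% of all tested genes, and none without the limit on size, against 0.416% of all tested genes. There were 7 of 37 members with an unadjusted limma p under 0.05, against 11.7% of all tested genes, and 11 of 37 without overlap of the genotypes, against 38.4% of all tested genes. The 95% intervals lay within -0.30 and 0.30, and the median difference was -0.02. The lowest p were those of Cars (-0.20 ± 0.0478, limma, adjusted p = 0.174), Rars2 (0.18 ± 0.0498, limma, adjusted p = 0.214) and Yars (-0.16 ± 0.0537, limma, adjusted p = 0.292). Cars and Yars were lower, and Rars2 higher, in both Mct1-deficient libraries than in either control library. No member was called when any 1 library was left out, on day 0 or on day 3.

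**Figure D5:**
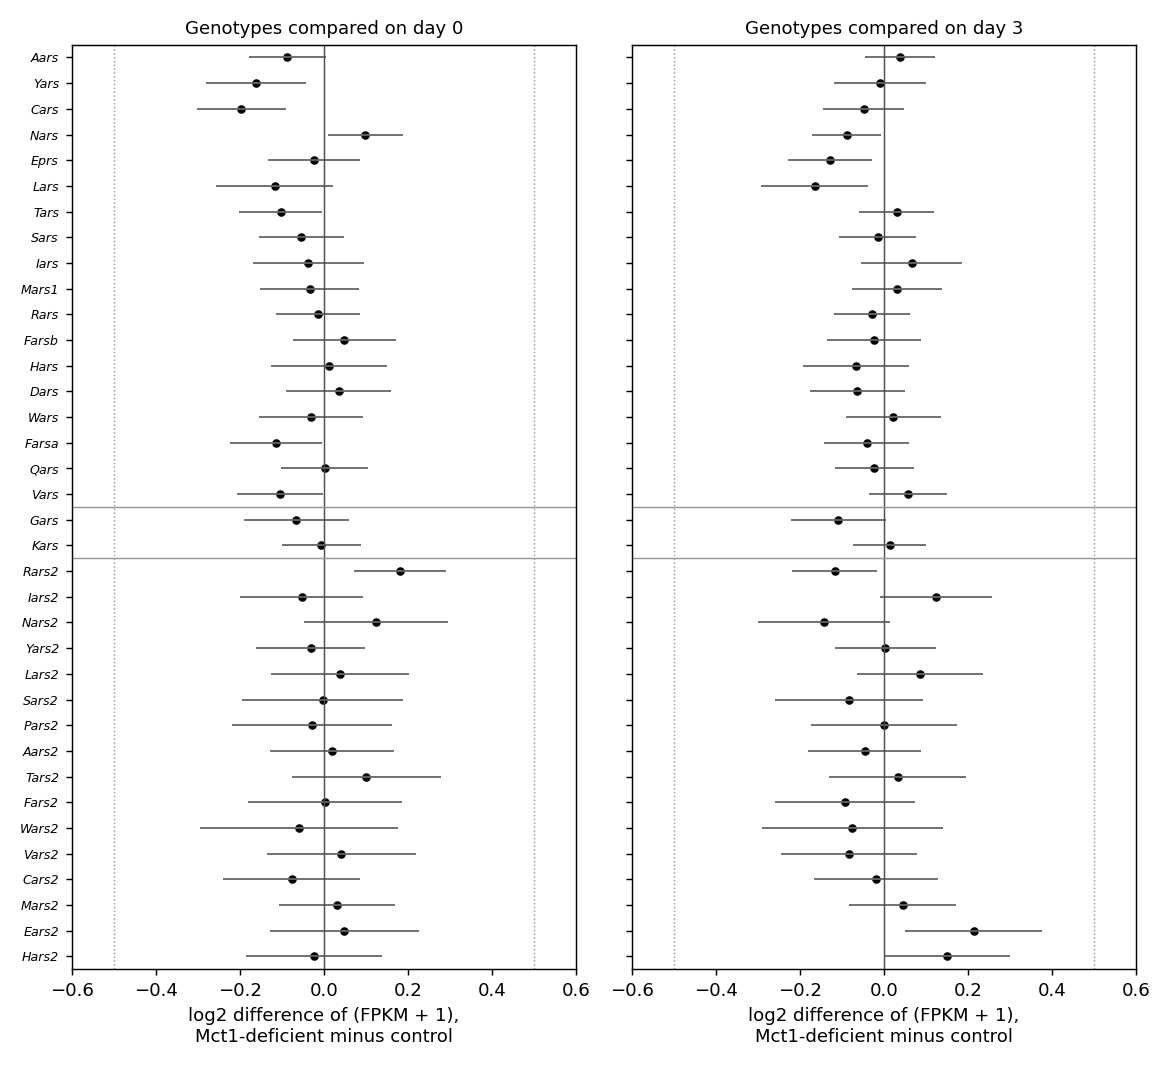
Log2 difference of (FPKM + 1) between Mct1-deficient and control B cells for 36 synthetase genes on day 0 (left) and day 3 (right), with 95% intervals from the limma fit and dotted lines at the limit of 0.5. Every interval lies inside the dotted lines on both days.

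The interaction of genotype and day asks whether the change on activation differed between the genotypes. It contains the change of control cells, in which sex and activation cannot be told apart. No synthetase was called, against 3.23% of all tested genes. At an adjusted p under 0.05 without the limit on size there was 1 member, against 9.42% of all tested genes, and at an unadjusted limma p under 0.05 there were 7, against 25.4% of all tested genes. The member was Rars2, whose rise was smaller by 0.30 ± 0.0674 in Mct1-deficient cells (interaction -0.30, limma, adjusted p = 0.0220), from a higher level on day 0 and to a lower level on day 3. Its adjusted p went above 0.05 when any 1 of 6 of the 9 libraries was left out, up to 0.0803 without control replicate 1 of day 3. Nars followed with an interaction of -0.19 ± 0.0549 (limma, adjusted p = 0.0585). The 95% intervals of 35 of the 37 members lay within 0.5 on either side, and that of Nars2 reached -0.50.

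The genes around the synthetases were described from lists of the same pathway, of which 54 genes were tested. On activation of control cells 30 of them were called higher and 2 lower, against 24.8% and 33% of all tested genes. In Mct1-deficient cells 27 were called higher and 2 lower, against 23.4% and 33.2% of all tested genes. The median log2 changes of the lists were 0.55 and 0.52. No gene of these lists was called between the genotypes on day 3 or day 0, against 2.42% and 0.277% of all tested genes. None was called for the interaction, against 3.23% of all tested genes.

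The scaffold proteins of the multi-synthetase complex rose in control cells, Aimp1 by 1.02, Aimp2 by 1.13 and Eef1e1 by 1.21. Their sum went from 75.4 and 75.6 FPKM to 164 and 166 FPKM in control cells. One list held the synthetase-like gene Tarsl2 and genes for editing proteins, which remove wrongly attached amino acids. In it Aarsd1 (1.16), Dtd2 (1.17) and Dtd1 (0.59) rose, and Tarsl2 (0.43) and Prorsd1 (-0.33) were not called. All 6 elongation factor genes rose, with Eef1b2 (1.17) and Eef1g (1.14) for the cytosol and Tufm (0.95) and Tsfm (0.87) for mitochondria, and with Eef1a1 (0.72) and Eef1d (0.69). Of the genes that make mitochondrial glutaminyl-tRNA and formylmethionyl-tRNA, Gatb rose by 0.60, and Gatc (-0.25), Qrsl1 (-0.40) and Mtfmt (-0.06) were not called. In the selenocysteine route Eefsec rose by 0.55, and Pstk, Sepsecs and Secisbp2 had log2 changes of -0.17, -0.17 and -0.42.

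Of 21 tested genes for tRNA maturation and transport, 11 rose and 1 fell in control cells, against 24.8% and 33% of all tested genes. Those that rose included the RNase P subunit genes Pop1 (1.39), Rpp30 (1.16), Rpp40 (1.10), Rpp38 (0.98), Pop4 (0.80), Pop5 (0.64) and Rpp14 (0.50), which process the 5′ end of precursor tRNA. The subunit genes Rpp21 (-0.43) and Pop7 (-0.17) went the other way in control cells and were not called. The tRNA exporter Xpot rose by 1.05, the 3′ processing nuclease Elac2 by 0.55 and the CCA-adding enzyme Trnt1 by 0.54. Elac1, which repairs tRNA ends, fell by 0.60. In Mct1-deficient cells Pop5, Rpp14, Trnt1, Gatb and Dtd1 were not called, with log2 changes of 0.50, 0.46, 0.39, 0.49 and 0.45, and Prorp (0.54) and Castor1 (0.55) were called higher, with 0.44 and 0.16 in control cells. Elac1 fell by 0.77 in Mct1-deficient cells.

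The list for the response to uncharged tRNA had the highest median log2 change of the lists, 1.57 in control and 1.40 in Mct1-deficient cells. The charging of tRNA itself was not measured. Asns, which makes asparagine and is a target of ATF4, rose from 4.12 and 1.89 FPKM to 106 and 100 FPKM in control cells and from 2.58 and 3.66 FPKM to 82.7, 94.0 and 102 FPKM in Mct1-deficient cells. The log2 changes in control cells were 4.76 for Asns, 3.79 for Chac1, 3.61 for Trib3, 2.30 for Sesn2 and 0.85 for Atf4. These 5 genes were also called higher in Mct1-deficient cells. Chac1 had 0.47 and 0.57 FPKM and Trib3 0.72 and 0.60 FPKM in control libraries on day 0, where the added 1 lowers the log2 change. The FPKM ratios of day 3 to day 0 in control cells were 34.4 for Asns, 38.5 for Chac1 and 29.3 for Trib3. The sensor genes Eif2ak4, which encodes GCN2, and Gcn1 had log2 changes of -0.09 and -0.11 and were not called. Ddit3, with 0.49, lay just inside the limit. Sesn1, which encodes another amino acid sensing protein, fell by 3.11 in control and by 2.94 in Mct1-deficient cells.

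Between the genotypes on day 3, 7 of the 54 genes of these lists (13%) had an adjusted p under 0.05 without the limit on size, against the 15.2% of all tested genes given for the synthetases. Castor1 (0.34), Pop1 (0.29) and Elac2 (0.15) had higher and Eef1b2 (-0.15) lower values in Mct1-deficient cells. The other 3, Sesn2, Trib3 and Ddit3, are from the list for the response to uncharged tRNA. Sesn2 had 19.6, 23.7 and 23.0 FPKM in Mct1-deficient and 28.5 and 30.9 FPKM in control libraries (difference -0.41, limma, adjusted p = 0.00617). Trib3 had 12.5, 15.8 and 14.8 FPKM against 20.1 and 18.6 FPKM (-0.41, limma, adjusted p = 0.0435). Ddit3 had 21.0, 26.8 and 25.3 FPKM against 33.5 and 32.7 FPKM (-0.43, limma, adjusted p = 0.00580), and 1.99% of the exonic bases of Mars1 overlap it on the opposite strand. For Sesn2, Trib3 and Ddit3 all Mct1-deficient libraries were below both controls, and the differences were inside the limit of 0.5, so that none was called. Atf4 (-0.05), Chac1 (-0.04) and Asns (-0.16) did not pass the adjusted threshold. These 7 genes were chosen for this description after their values were seen, and whether they differ from the synthetases was not tested.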

How the data were processed

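RNA sequencing of 9 libraries was used. The authors deposited FPKM values, rounded to 2 decimals, for 17596 genes, normalized to gene length and mapped fragments, and the submitters' processing notes name Bowtie2, GRCm38 and mm10. The quantifier, the annotation and the use of strand are not given in the sources used here. The values hold no counts, so depth is unknown and precision rests on the 2 or 3 libraries of each group. Per-comparison results of the authors were not used.

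From the deposited FPKM, log2(FPKM + 1) was computed without scaling, and all 10823 genes whose mean reached 1 FPKM were fitted together in limma 3.58.1 (R 4.3.3), with 1 mean per group, empirical Bayes with a trend and Benjamini-Hochberg adjustment over all of these genes. A call needed both an adjusted p under 0.05 and a log2 change above 0.5 in size, in each of 5 comparisons. Intervals are 95% intervals of the fit. The fit was tried on simulated data for the genotype comparison on day 3 only. These held no activation effect, so they do not bear on the activation or interaction calls. Slc16a1 was also compared by an exact permutation test (scipy 1.17.1, Python 3.11.15), and figures were drawn with matplotlib 3.10.9.

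The members and lists were chosen with earlier results of these data known. Values of every library are given for the 5 members with the largest and the 3 with the lowest change in control cells, the 3 with the lowest p in each genotype comparison and the interaction, and pairs that differed by over 2, except for genes not reported here, which, like 1 sequence match, stay in the counts, medians and sums. Gene coordinates come from GENCODE, promoter windows from RefSeq (GRCm38.p6). The alternatives were pseudocounts of 0.1 and 5, other filters, scalings and log2 limits, fits of the compared groups alone, no trend, the replicate number as a block, and fits without each of the libraries. A crossed block, and the settings for Slc16a1, were added after seeing the data.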

Additional observations from a re-analysis of the deposited data

Results flagged for a closer look

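Rars2 is given here because its change on activation differed between the genotypes by the interaction term of the limma fit, at -0.30 (log2(FPKM + 1) scale, adjusted p = 0.0220), inside the limit of 0.5 that a call needs. The gene had 12.0 and 11.3 FPKM in control and 13.3 and 13.5 FPKM in Mct1-deficient libraries on day 0, and 25.8 and 25.7 FPKM and 23.9, 23.1 and 24.1 FPKM on day 3, so the genotypes did not overlap on either day and their order was exchanged. The interaction lay between -0.26 and -0.34 without any 1 library, and its adjusted p between 0.0249 and 0.0803. With libraries set to the same total its adjusted limma p was 0.0582. Rars2 was 1 of 37 members, and 9.42% of all tested genes had an adjusted p under 0.05 for the interaction. Sex and activation cannot be told apart in the control libraries, whose change is part of the interaction. Dixon's test was not applicable, since no group held 4 libraries.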

How the results depend on the processing

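The counts of synthetases called higher on activation stayed within 1.5 times of 23 in control and 21 in Mct1-deficient cells under all alternatives run, and with single libraries left out they lay between 19 and 23 and were 21 throughout. The 2 control calls in the lower direction became 0 with a pseudocount of 5, median-of-ratios scaling, quantile normalization or a log2 limit of 1. In Mct1-deficient cells the count of 0 became 2 with a pseudocount of 0.1, 3 with the same total and 4 without a log2 limit, and lay between 0 and 1 with single libraries left out. No genotype comparison gained a call, and the interaction gained 1 (Rars2) without a log2 limit. The shares of all tested genes called were not computed under these alternatives, so the counts have no background beside them. The sums on day 3 over day 0 (2.22 and 2.24) became 2.50 and 2.47 without Vars, 1.93 and 1.98 as shares of the summed FPKM, and 2.58 and 2.61 with median-of-ratios scaling. The ratio of cytosolic to mitochondrial FPKM without Vars was 2.83 and 2.73 on day 0 and 6.74 and 6.63 on day 3.

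Members that were not called changed sign on activation under some settings. With the same total these were Aars2 (-0.065) and Tars2 (-0.18) in control and Aars2 (-0.11) and Vars (-0.050) in Mct1-deficient cells. With median-of-ratios scaling they were Cars2 (0.087), Wars2 (0.11), Fars2 (0.16), Vars (0.18) and Vars2 (0.11) in control and Cars2 (0.15), Wars2 (0.10), Fars2 (0.069) and Tars2 (0.16) in Mct1-deficient cells. With quantile normalization they were Cars2 (0.0105), Wars2 (0.23), Fars2 (0.18) and Vars2 (0.12) in control and Cars2 (0.10), Wars2 (0.30), Fars2 (0.12), Vars (-0.10) and Vars2 (0.025) in Mct1-deficient cells. With single libraries left out they were Wars2 (-0.16 to 0.0365), Fars2 (-0.064 to 0.0057) and Tars2 (-0.085 to 0.12) in control and Cars2 (-0.12 to 0.0086), Wars2 (-0.15 to 0.0134) and Tars2 (-0.089 to 0.0131) in Mct1-deficient cells. Beyond the construction of each alternative, the cause was not tested.

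Whether the replicate numbers of the labels pair the libraries could not be decided. Deviations from the group means correlated across genes at -0.12 for same-numbered control libraries and at 0.05 and 0.06 for Mct1-deficient libraries. With 2 control libraries on each day, both control pairs give the same value by construction, and a crossed pairing reverses its sign. With the replicate number as a block, 23 and 21 members were called higher in control and Mct1-deficient cells, and the adjusted p of the Rars2 interaction was 0.0628. With a crossed pairing of the control libraries the counts were also 23 and 21, and the adjusted limma p of the Rars2 interaction was 0.0470. The small groups and unknown depth limit what the genotype comparisons can show to differences of about the width of the intervals given.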
